A study of Mus musculus with 2 samples.

Results

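TIARP is the product of Steap4, a member of the six-transmembrane STEAP family of metalloreductases. Its mRNA was followed here together with that of 9 other genes of iron and heme handling: Steap3, Steap1, Hmox1, Slc40a1, Tfrc, Fth1, Slc11a1, Slc11a2 and Blvrb. Probe sets were taken where the annotation of the platform gave a single gene symbol and that symbol was among these 10. This gave 23 of the 20393 probe sets with a single symbol, and 10 of the 12394 genes they stand for. A probe set is a group of short oligonucleotides on the array that read the same transcript and are summarized as 1 signal.

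The animals were males of the DBA/1 strain aged 6 to 8 weeks, in which immunization with glucose-6-phosphate isomerase (GPI) induces arthritis. The arthritic group was given 300 μg of recombinant human GPI fused to glutathione S-transferase (GPI-GST), and the control-immunized group was given 100 μg of GST. Complete Freund's adjuvant was used in both groups, so the control mice had also been challenged with an adjuvant. Spleens of 3 mice per group were taken at day 10, and splenocyte RNA was read on 1 Affymetrix mouse GeneChip per group. Whether the RNA of the 3 mice was pooled is not stated.

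With 1 array per group there were no replicates. No test was possible, no p-value or SD between mice is given, and each ratio describes this pair of arrays. The number of arrays sets how precise a ratio can be. Median signals were 48.65 in the control and 51.8 in the GPI group, in deposited intensity units. Bacterial control probe sets, whose targets mouse cells do not make, reached at most 14.1, and this level was taken as background. A signal was called sufficient where at least 1 of the 2 arrays reached 50.2, the 50th percentile of all signals. The log2 ratios of different probe sets for the same gene spread with an SD of 0.28 over 2538 pairs of probe sets, a factor of 1.21, which holds no variation between mice or hybridizations. Markers of the labelled tissue were present, since 7 of 8 measured B cell markers and 7 of 8 measured T cell markers had sufficient signal.

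Cells take up iron mainly as transferrin bound to the transferrin receptor, which is carried into endosomes. There the ferric iron is reduced by STEAP metalloreductases and leaves the endosome through the transporter DMT1. Iron that is not used is stored in ferritin or exported by ferroportin. In the spleen, macrophages of the red pulp engulf aged red cells, open their heme with heme oxygenase and return the iron to the blood. Inflammation shifts these steps in phagocytes, where withholding iron from microbes is part of host defence.

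The sequences just before the starts of Steap4 and Steap1 are shown because these family members lie on the same mouse chromosome and differed on the arrays, Steap4 being above background after GPI immunization only and Steap1 on neither array. They are RefSeq sequences of build GRCm38.p6 and cover the 250 bases before each gene's start, chr5:7960222-7960471 on the plus strand for Steap4 and chr5:5749318-5749567 on the minus strand for Steap1. Capitals mark matches, on either strand, to letters taken from the recognition motifs of factors that act downstream of IL-6 and TNFα: TTCNNNGAA for STAT, GGNNNTTCC for NF-κB and TTNNGCAA for C/EBP.
Steap4: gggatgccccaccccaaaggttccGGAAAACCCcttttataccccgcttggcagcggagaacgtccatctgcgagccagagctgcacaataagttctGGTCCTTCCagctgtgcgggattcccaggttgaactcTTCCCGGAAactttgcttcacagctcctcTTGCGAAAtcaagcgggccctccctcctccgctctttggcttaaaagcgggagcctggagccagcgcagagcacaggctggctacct
Steap1: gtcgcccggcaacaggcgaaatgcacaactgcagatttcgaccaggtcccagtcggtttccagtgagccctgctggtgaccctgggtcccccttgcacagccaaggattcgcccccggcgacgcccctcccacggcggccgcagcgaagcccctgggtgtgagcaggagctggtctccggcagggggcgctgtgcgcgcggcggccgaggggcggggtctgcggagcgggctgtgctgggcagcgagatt

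The Steap4 window held 1 STAT match, beginning 116 bases before the start, 1 C/EBP match at 87 bases and 2 NF-κB matches at 226 and 153 bases. None of the matches overlapped another. The Steap1 window held 0 matches to these letters. Over 32851 windows of the same length in the table, 7.02% held a STAT match, 15.7% an NF-κB match and 9.56% a C/EBP match. These matches are a description of the letters and not of binding. The letters are a simplified form of each motif, so a match need not be a full site and other forms of a site go unmarked. The windows also differed in composition, with 58.4% G and C and 12 CpG in Steap4 against 70.8% and 24 CpG in Steap1.

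Among the 10 genes, the ratios of GPI-immunized over control-immunized signal ranged from Steap4, far higher after GPI immunization, to ferritin and biliverdin reductase, close to 1. The transferrin receptor Tfrc was 1.94- to 2.80-fold higher in 5 of its 6 probe sets and 1.16-fold higher in the brightest one. Hmox1 and Slc11a1 were higher by less than 2-fold, at 1.73 and 1.54. Slc40a1, Slc11a2 and Steap3 had ratios between 1.07 and 1.99, and Steap1 was not measurable.

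Of the 23 probe sets, 19 had sufficient signal, and they came from 9 of the 10 genes. The 2 probe sets of Steap1 were at background on both arrays, and the dimmer probe set of Steap4 and 1 of Steap3 missed the signal limit. The limit was reached only on the GPI array by 2 of the 19, the brighter Steap4 probe set and 1 of Steap3, so their place among the 19 depends on the array where they were high. A 2-fold or greater excess on the GPI array was found in 5 of the 19 and a deficit of that size in 0, against 2.35% and 0.465% of all 10749 probe sets with sufficient signal. The 5 came from 2 genes, 1 from Steap4 and 4 from Tfrc, and 3 of the 4 were quality control probe sets of the array design that read the same Tfrc mRNA. A ratio above 1 was found in 17 of the 19, against 59.5% of all, both as deposited. After quantile normalization it was found in 15 of the 19, and the share over all was not counted there. The median log2 ratio was then 0.40 for the 19 and -0.01 for all probe sets with sufficient signal. As deposited, the median log2 ratio of the 19 was 0.49, against 0.07 for all probe sets with sufficient signal. When each gene was read by its brightest probe set, 1 of the 9 genes, Steap4, reached 2-fold, where the share among all 6962 genes was 2.23%.

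**Figure D1:**
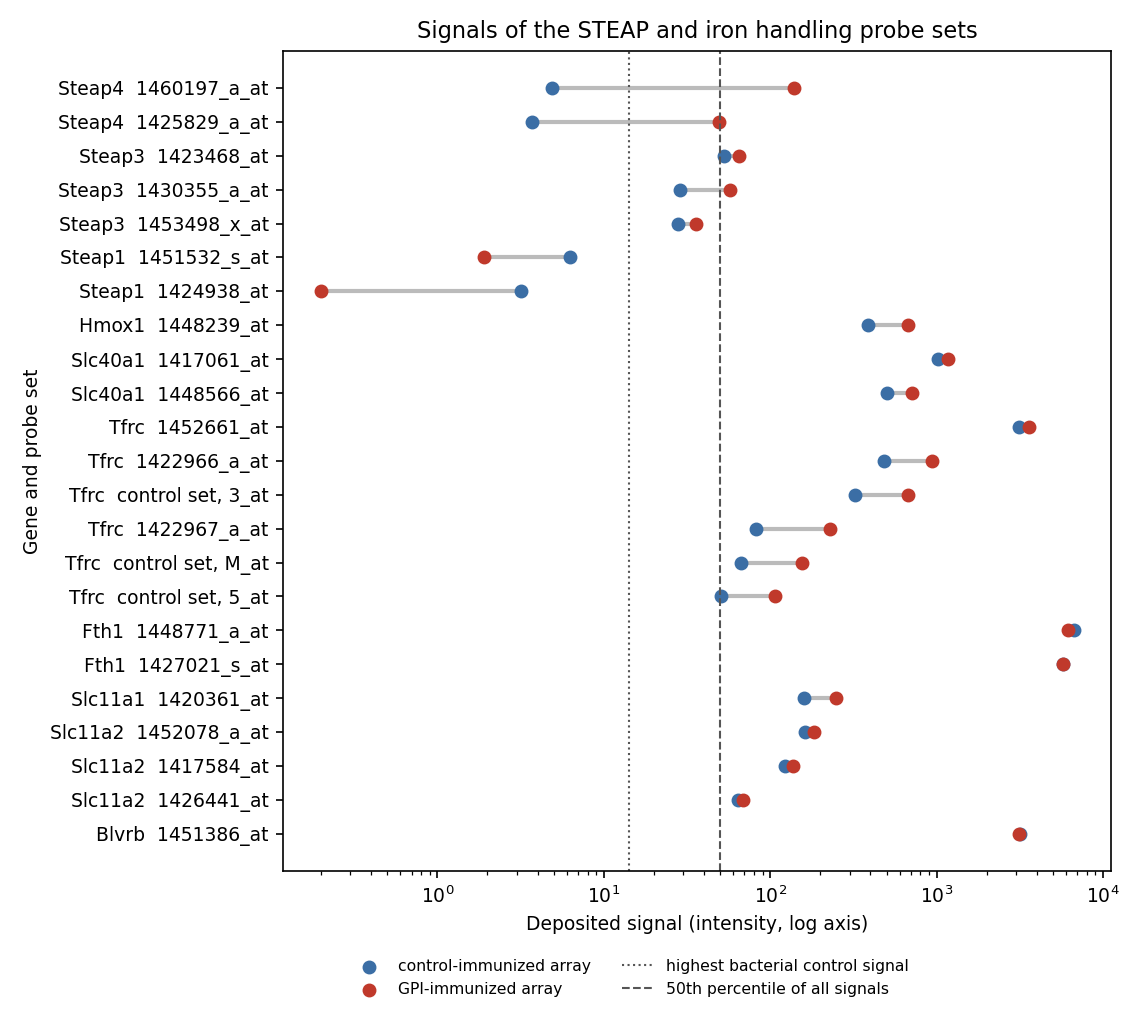
Deposited signal (horizontal, log axis) of each of the 23 probe sets on the control-immunized array (blue) and the GPI-immunized array (red), 1 array per group, with the highest bacterial control signal of 14.1 dotted and the 50th percentile of 50.2 dashed. Steap4 crosses from below the dotted line to 138.8 and 49.1, Steap1 stays below it on both arrays, and the blue points of Fth1 and Blvrb lie nearly or fully under the red ones.

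The STEAP proteins reduce ferric iron and cupric copper, and TIARP is known in fat cells as a protein induced by TNFα. The brighter probe set of Steap4 (Entrez gene 117167) read 4.9 after control immunization and 138.8 after GPI immunization. The dimmer one had 3.7 and 49.1. Both probe sets therefore read background on the control array and a signal well above it on the GPI array. As deposited the ratios were 28.3 and 13.3, but the control signals are not measured levels. Against the highest bacterial control signal, Steap4 mRNA was at least 9.84-fold higher by the brighter probe set and at least 3.48-fold higher by the dimmer one. These bounds exceeded 2.49 and 2.82, the upper ends of the central 95% of ratios among the 500 probe sets nearest to each in mean signal. In whole splenocytes, more cells of a type and more mRNA per cell cannot be told apart.

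Steap3 is the main ferrireductase of red cell precursors. Its brightest probe set gave 52.9 in the control and 65.0 in the GPI group, a ratio of 1.23. The others gave 28.7 and 57.2 (1.99) and 28.0 and 35.8 (1.28). All 3 were higher on the GPI array, and all 3 lay within the central 95% of probe sets of like signal, whose upper ends were 1.93, 2.45 and 2.34. Steap1, which is best known from prostate tissue, had signals of 6.3 and 1.9 in one probe set and 3.2 and 0.2 in the other. These are at or under the bacterial control level, so no ratio is given for Steap1 and a difference was not detectable. Steap2 was not analysed here.

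By likeness of the deposited log2 ratio over the 2 arrays, Mef2b, Spon1, Slpi, Il1f9 and Clec4e were picked as the 5 genes with sufficient signal nearest to Steap4. Since the control signal of Steap4 was at background, neither their order nor their distance from it is measured. Mef2b and Spon1 were at background on the control array too, with bounds of at least 5.71-fold and 3.65-fold higher. The others were above background on both arrays, and Slpi, which encodes a secreted protease inhibitor, had signals of 320.3 and 3501.4, a ratio of 10.9 that exceeds the Steap4 bound of 9.84. Il1f9, a cytokine of the IL-1 family, had 31.8 and 193.2 (6.08), and Clec4e, a receptor of myeloid cells, had 29.8 and 173.1 (5.81).

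**Figure D2:**
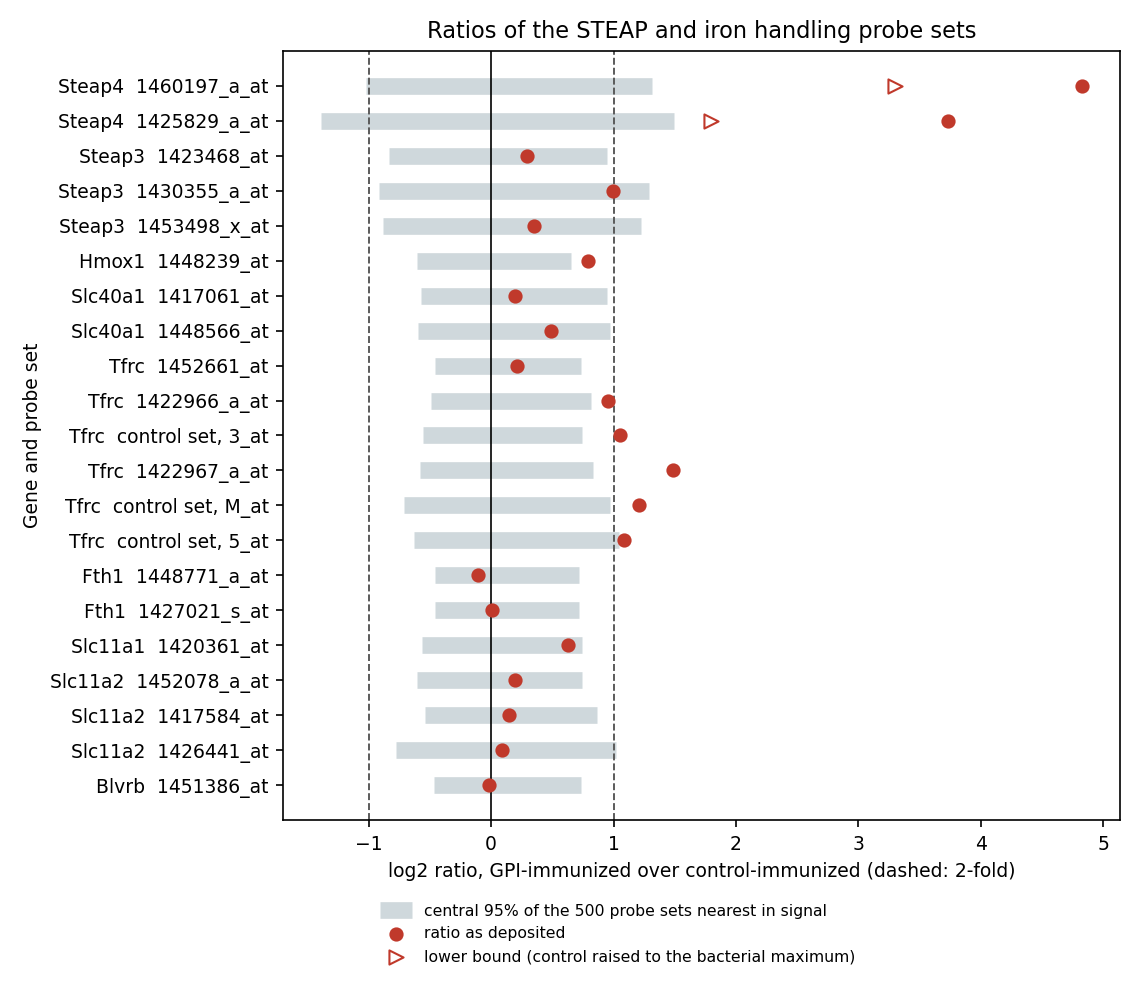
Log2 of GPI-immunized over control-immunized signal (horizontal) for the 21 probe sets above background on at least 1 array (red points), with the central 95% of the 500 probe sets nearest in mean signal (grey bars) and, for Steap4, the lower bound against background (open triangles). Both Steap4 probe sets, 5 of 6 for Tfrc and that of Hmox1 lie to the right of their grey bars, while the other 13 lie within them.

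Tfrc (Entrez gene 22042), the receptor that brings transferrin-bound iron into the cell, is most abundant on red cell precursors and on dividing cells. It was read by 6 probe sets, more than any of the other 9 genes. The brightest read 3105 in the control and 3593.5 in the GPI group, a ratio of 1.16. The next had 485.9 and 943.7, a ratio of 1.94. Another had 82.1 and 229.7, a ratio of 2.80. All were higher on the GPI array, but the brightest and the other probe sets disagreed on the size.

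The 3 quality control probe sets for the transferrin receptor, placed at the 3′ end, the middle and the 5′ end of the same mRNA, gave ratios close to each other. The 3′ set had signals of 324.2 and 672.9, a ratio of 2.08. The middle set had 67.2 and 155.1 (2.31), and the 5′ set had 50.6 and 107.6 (2.13). The difference was thus present in the 3 places that these sets read. It was not of that size in the brightest probe set, whose place on the mRNA is not shown here. The 3′ signal was 6.41 times the 5′ signal in the control and 6.25 times in the GPI group, so the arrays were nearly alike in this measure of how far labelling reached along the transcript. Over the 6 probe sets the mean log2 ratio was 1.00, with an SD of 0.43 that exceeds the 0.28 of those pairs. Of the 6 ratios, 5 lay above the central 95% of probe sets of like signal, and that of the brightest probe set, with an upper end of 1.67, lay within it. As deposited 4 were at least 2, but 2 were when each array was divided by its median and 3 after quantile or loess normalization, and 5 were when the arrays were set to their hybridization controls.

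DMT1 (Slc11a2) carries ferrous iron out of the endosome, and its relative NRAMP1 (Slc11a1) carries divalent metals out of the phagosomes of macrophages and neutrophils. The brightest Slc11a2 probe set read 161.3 in the control and 184.2 in the GPI group, a ratio of 1.14. The others had 123.6 and 136.5 (1.10) and 64.4 and 68.6 (1.07). The 3 agreed closely and lay nearer to 1 than the factor of 1.21 seen between probe sets of the same gene. Slc11a1 had 160.0 and 247.0, a ratio of 1.54. This exceeded that factor and was reached by 7.15% of all probe sets with sufficient signal, and it lay within the central 95% of probe sets of like signal, whose upper end was 1.68.

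Ferritin heavy chain (Fth1) oxidizes iron for storage, and ferroportin (Slc40a1) is the iron exporter of vertebrate cells. The Fth1 probe sets had signals of 6660.8 and 6170.8 (0.926) and of 5745.9 and 5784.6 (1.01). Both ratios thus lay nearer to 1 than the factor of 1.21 seen between probe sets of the same gene. Both Fth1 probe sets are of a kind shared by several transcripts, and near-identical copies of the gene may contribute to the dimmer one. Slc40a1 had 1019.9 and 1165.1 in the brighter probe set, a ratio of 1.14, and 504.6 and 707.1 in the dimmer one, a ratio of 1.40. Both were higher on the GPI array, and both lay within the central 95% of probe sets of like signal.

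Heme oxygenase 1 (Hmox1) opens heme and frees its iron, and biliverdin reductase B (Blvrb) is a reductase abundant in red cells. Hmox1 read 387.4 in the control and 671.5 in the GPI group, a ratio of 1.73. This was above the upper end of 1.57 for probe sets of like signal and was reached by 4.17% of all probe sets with sufficient signal. Its single probe set leaves no second reading of the size. Blvrb had 3172.1 and 3131.1, a ratio of 0.987. The enzymes thus differed, with Hmox1 higher on the GPI array by more than the spread between probe sets and Blvrb within it.

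Of 45 other genes of iron and heme handling, sorted into 7 lists by role, 36 were measured and 25 had sufficient signal. Of the 25, 2 passed 2-fold upward and 0 downward, against 2.23% and 0.445% of all genes. Their median log2 ratio was 0.06, the same to 2 decimals as that of all genes with sufficient signal. A ratio above 1 was found in 17 of 25, where 57.6% of all genes had one, and in 11 or 12 of 25 after division by the median, quantile or loess normalization. Their share above 1 thus moved with the scaling. The share over all genes was counted as deposited only, so the rescaled counts have none beside them.

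Both genes that passed 2-fold upward were on the list for scavenging of hemoglobin or iron carriers outside the cell. This list had 5 genes with sufficient signal, of which 2 passed 2-fold upward, against 2.23% of all genes. Its median log2 ratio of 1.00 is the value of its middle gene, Ltf. Haptoglobin (Hp), which binds free hemoglobin, had signals of 460.7 and 1480.4, a ratio of 3.21. Lipocalin 2 (Lcn2), which binds bacterial siderophores, had 2071 and 4438.3 (2.14), and lactoferrin (Ltf), which binds iron itself, had 2038.1 and 4068.7 (1.996, just under the 2-fold limit). Lcn2 and Ltf are also neutrophil granule proteins. Cd163, the macrophage receptor for the haptoglobin-hemoglobin complex, had 290.7 and 291.4, a ratio of 1.00, so the carrier and its receptor differed. Lrp1 on the same list had 139.2 and 206.5 (1.48), and Hpx was at background on both arrays.

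In mitochondria, iron is built into heme and iron-sulfur clusters. By their brightest probe sets, all 5 measured genes of this list had ratios below 1 (median log2 ratio -0.43). Of the 5, 0 were at least 2-fold lower. Among all genes with sufficient signal, 57.6% had a ratio above 1 and 0.445% were at least 2-fold lower. The iron importers Slc25a28 and Slc25a37 (mitoferrin 1) had ratios of 0.708 and 0.718, and ferrochelatase (Fech), which puts iron into heme, had 0.741. Nfs1 and Iscu were closer to 1, at 0.856 and 0.958. The other Nfs1 probe set gave 1.15, above 1, and the other Fech probe sets gave 0.733 to 0.782. Read by their brightest probe sets, the 5 genes stayed below 1 under median, quantile and loess scaling, and 4 of 5 when the arrays were set to their hybridization controls. Of 6 other heme handling genes, 0 passed 2-fold in either direction and the median log2 ratio was 0.16. The highest was Blvra, the main biliverdin reductase, with 344.1 and 510.2 (1.48), followed by the stress regulator Nfe2l2 at 1.25 and its competitor Bach1, a repressor of Hmox1, at 1.16.

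Among genes with sufficient signal, the remaining roles held 0 at least 2-fold higher or lower. In iron uptake 3 genes had sufficient signal (median log2 ratio 0.06), with transferrin receptor 2 (Tfr2) at 1.32 and the zinc and iron importers Slc39a14 and Slc39a8 at 0.757 and 1.04. The other Slc39a8 probe set gave 2.06. In storage there were 3 (median 0.04), with the iron chaperones Pcbp1 and Pcbp2 at 1.11 and 1.03 and the ferritin turnover receptor Ncoa4 at 0.816. Iron sensing had 2, on either side of 1 as deposited, the iron regulatory proteins Aco1 at 0.954 and Ireb2 at 1.04. The other Aco1 probe set gave 1.36. Both genes were below 1 under median, quantile and loess scaling and above 1 when set to the hybridization controls. In export and its control 1 gene had sufficient signal, Hfe at 1.07 (1.51 by its other probe set). Heph, Hamp2 and Bmp6 were at background on both arrays. Below the signal limit, the hepcidin gene Hamp had signals of 17.0 and 1.4, ceruloplasmin (Cp) 14.9 and 5.9, and the duodenal ferrireductase Cybrd1 of the uptake list 17.0 and 3.3. All 3 were lower on the GPI array, but they were at background there and little above 14.1 in the control, so no ratio is given. The medians of the uptake and storage lists turned negative under median, quantile and loess scaling, so they carry no direction.

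**Figure D3:**
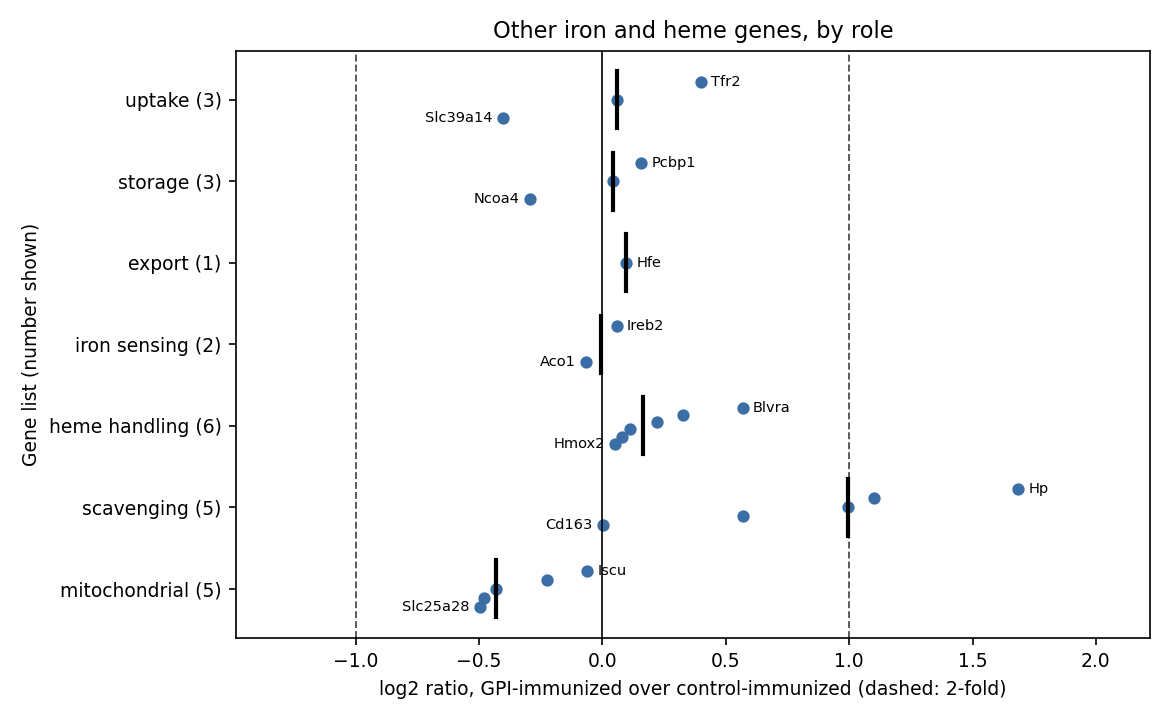
Log2 of GPI-immunized over control-immunized signal (horizontal) for the other iron and heme genes with sufficient signal, 1 point per gene by its brightest probe set, in 7 lists by role, with the list median as a black bar and the ends of each list named. The scavenger list centres on 1.00 with Hp the highest, the 5 mitochondrial genes lie below 0, and the other lists lie near 0.

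Markers of myeloid cells were higher on the GPI array as well. All 14 measured neutrophil markers had ratios above 1, 7 of them were at least 2-fold higher (6 under median, quantile or loess scaling, and 10 when set to the hybridization controls), and their summed signal went from 35344.7 on the control array to 51997.4 on the GPI array, a ratio of 1.47 (median log2 ratio 1.03). As deposited, the shares over all 6962 genes were 2.23% for a 2-fold excess and 57.6% for a ratio above 1. They were not counted under the other scalings. Without Ltf and Lcn2, which stand in an iron list too, 6 of 12 were at least 2-fold higher. The list called monocyte here holds markers of monocytes and of inflammatory myeloid cells. All 9 measured had ratios above 1, and 4 were at least 2-fold higher (6 when set to the hybridization controls). Their summed signal went from 6772.5 to 9852.6, a ratio of 1.45 (median log2 ratio 0.88). Those past 2-fold as deposited were Clec4e, Cd14, Itgam and Fcgr3, and the lowest were Csf1r at 1.15, Chil3 at 1.37 and Lyz2 at 1.38. Whether this list reads monocytes apart from neutrophils was not tested. Itgam, which encodes CD11b, had 89.7 and 216.5, a ratio of 2.41. No measured marker on either list was at background on both arrays. Ly6g, Retnlg and Stfa1 of the neutrophil list and Ly6c2 of the monocyte list were not measured. The highest ratio in these lists, 5.81 for Clec4e, was under the bound of 9.84 for the brighter Steap4 probe set and above the 3.48 of the dimmer one. The part of myeloid cells in the ratios of Steap4, Slc11a1, Hmox1 and Hp was not tested.

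Markers of the cells that handle most splenic iron were closer to 1. Of 11 measured red pulp macrophage markers 10 had sufficient signal, 0 were 2-fold higher or lower, and the summed signal went from 3981.2 to 4367.7, a ratio of 1.10 (median log2 ratio 0.13), with Siglec1 at background on both arrays. Ratios above 1 were found in 9 of the 10, and in 6 under median, quantile or loess scaling. Spic, the factor that defines these macrophages, had 320.3 and 345.7 (1.08), and Vcam1 had 931.9 and 953.7 (1.02). These lay under the ratio of 1.73 for Hmox1 and near the 1.14 of the brighter Slc40a1 probe set. Of 11 erythroid markers 10 had sufficient signal, 0 were 2-fold higher or lower, and the summed signal went from 31141.4 to 28755.9, a ratio of 0.923 (median log2 ratio -0.11, which turned to 0.08 when the arrays were set to their hybridization controls), with Hba-a1 at background on both arrays. Of the 6 Tfrc ratios, 5, from 1.94 to 2.80, lay above the highest erythroid marker, Car1 at 1.17, and that of the brightest probe set, 1.16, just under it.

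Lymphocyte markers with sufficient signal had ratios below 1 as deposited. Over all 6962 genes, 57.6% had a ratio above 1 and 0.445% passed 2-fold downward. All 7 B cell markers with sufficient signal were below 1 as deposited (6 of 7 when set to the hybridization controls), and 1 of them, Fcer2a, passed 2-fold downward, with a summed signal over 8 markers of 15348.7 and 11417.5 (ratio 0.744, median log2 ratio -0.51). All 7 T cell markers were below 1 and 0 passed 2-fold downward (1 under median, quantile or loess scaling), with 2044.9 and 1503.4 over 8 markers (ratio 0.735, median log2 ratio -0.47).

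**Figure D4:**
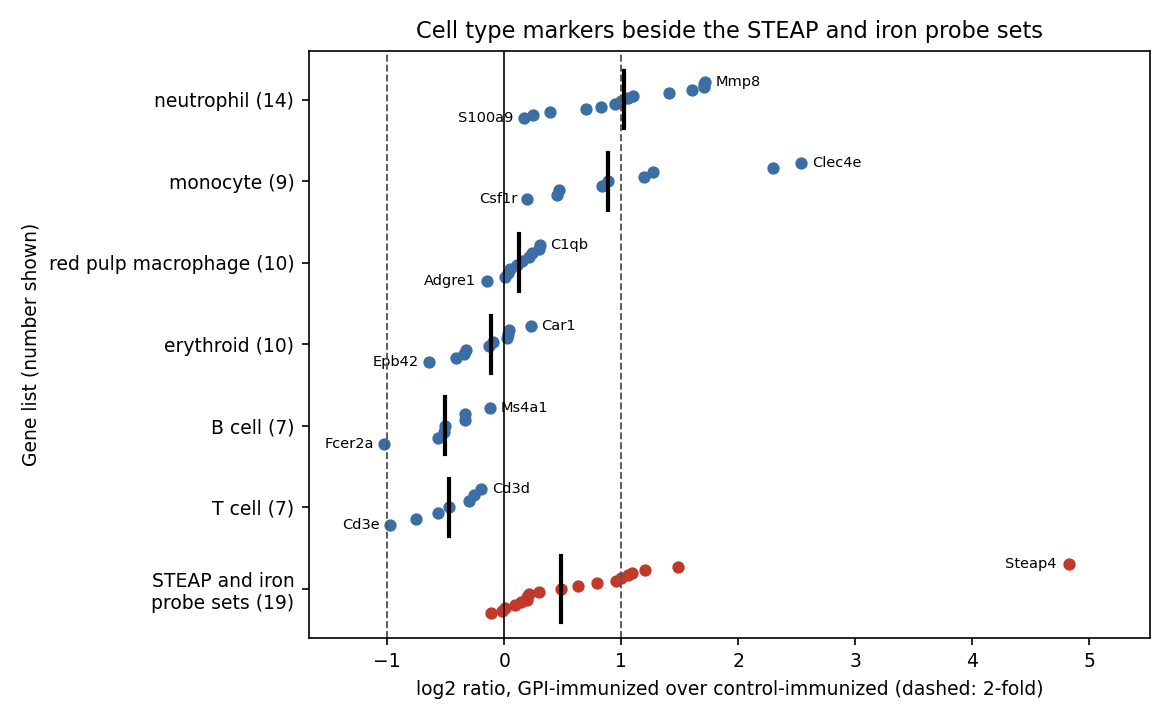
Log2 of GPI-immunized over control-immunized signal (horizontal) for markers of 6 cell types with sufficient signal (blue, 1 point per gene) and for the 19 STEAP and iron probe sets with sufficient signal (red), each with its median as a black bar. The myeloid medians are 1.03 and 0.88, red pulp macrophage and erythroid medians lie near 0, and Steap4 is drawn at 4.82, a value that rests on a control signal at background.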

How the data were processed

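Total RNA of splenocytes was read on 1 Affymetrix mouse GeneChip per group. The authors deposited 1 intensity per probe set and array on a linear scale, made with gene expression software that the methods do not name. How probes were summarized and scaled, and any detection call, is not stated. The methods describe biotinylated cRNA, whereas the labels describe a whole-transcript cDNA kit. Both columns were assigned from the sample labels.

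Gene names came from the annotation of the platform, and all 10 genes matched RefSeq (GRCm38.p6) by gene ID with the same symbol. Of the 10, 7 had an entry in the promoter table. Ratios were formed without further scaling, with a step of 0.1 in place of 0. Genes with several probe sets were read by the brightest, in mean log2 signal. The 10 genes and all gene lists were chosen with earlier results of these data known. Named in the text were all 10 genes, up to 3 genes per iron list furthest from a ratio of 1, and the 5 nearest to Steap4; other genes were chosen after their values were seen. The sum of a marker list runs over its measured genes. Shares over all probe sets or all genes were taken on the deposited values with the main filter, and not under the alternatives. Alternatives were division by the median, quantile and loess scaling, floors, filters, a 3-fold threshold and other choices of probe sets, and, added after the data were seen, scaling to the hybridization controls (bacterial and phage transcripts that gave bright signals) and leaving out the array's control probe sets. The scaling and ratio steps were tested on simulated data. No probe set near background was changed there, so the Steap4 ratio and its bound were not covered. The software was pandas 2.3.3, numpy 2.4.6, statsmodels 0.14.6 and matplotlib 3.10.9 under Python 3.11.15. PCR, protein and human experiments are not analysed here.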

Additional observations from a re-analysis of the deposited data

How the results depend on the processing

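The deposited Steap4 ratio of 28.3 moved to 17.8 with a floor at the 25th percentile of signals, 2.765 at the 50th, 9.84 at the bacterial control level and 19.4 as the mean over its probe sets. It was between 26.6 and 32.2 under the other scalings. The 5 probe sets at least 2-fold higher became 3 after division by the median, 3 without shared probe sets, 2 with the filter at the 75th percentile, 1 at 3-fold, 8 when scaled to the hybridization controls and 2 without the array's control probe sets. The 0 probe sets at least 2-fold lower became 2 without a filter, both of Steap1 and both at background. For the 8 other genes with a ratio, 70 of 71 values under the alternatives moved by less than the spread between probe sets. The exception was Tfrc, at 1.16 by its brightest probe set and 2-fold as the mean over 6. Many of the 71 values could not move, so this count is not a measure of stability. The floors lay under both signals of each brightest probe set. Hmox1, Slc11a1 and Blvrb have a single probe set, and for all but Slc11a2 the brightest was not a shared one where an unshared one existed. Hybridization controls were lower on the GPI array in 17 of 18 probe sets (geometric mean ratio 0.879). Scaling to them moved the median log2 ratio of all probe sets with sufficient signal from 0.07 to 0.26 and placed Fth1 at 1.06 and Blvrb at 1.12, the only 2 values on the other side of 1. Apart from settings that change which signals are compared, the causes were not tested. Steap4 and Fth1 have no value without shared probe sets, since all of theirs are of that kind. Shared here means by several transcripts, which can be transcripts of the same gene. Signals of Steap1 and the control signals of Steap4 are limited by background. No paired analysis was possible because each group has 1 array.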

Other observations

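Gapdh, the gene to which the study's PCR measurements of TIARP were set, had ratios of 1.43, 1.61 and 1.65 in its 3 probe sets with sufficient signal. All 3 are quality control probe sets of the array design that read the same mRNA, so they are not separate ordinary probe sets. Over the 5 scalings tried the Gapdh ratios ran from 1.34 to 1.88. Actb, which encodes β-actin, had 5 probe sets with sufficient signal, some of them quality control probe sets too. Their ratios ran from 0.992 to 1.10 as deposited and from 0.932 to 1.25 over the scalings, so Actb had no settled direction. Taken relative to Gapdh, the deposited ratio of the brighter Steap4 probe set was between 17.2 and 19.8, and relative to Actb it was between 25.8 and 28.6. These values carry the same limit as the ratio itself, a control signal at background. Relative to Gapdh, the brightest Tfrc probe set had a ratio between 0.702 and 0.809, below 1, and relative to Actb between 1.05 and 1.17, above 1, so its direction depended on the reference gene.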
